A study of Arabidopsis thaliana with 2 samples.

Results

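The jasmonate set comprised 10 probe sets of the Affymetrix ATH1 array: 4 for enzymes of jasmonate synthesis (LOX2, AOS, AOC1 and OPR3), 5 for JAZ repressor proteins (JAZ1, JAZ5, JAZ7, JAZ8 and JAZ10) and 1 shared by the vegetative storage protein genes VSP1 and VSP2. They were chosen by probe set identifier for the pathway of their genes, with earlier results of these data known. They are 10 of 22746 plant probe sets on the array. The study used seedlings of Arabidopsis thaliana, ecotype Col-0, which were taken whole when 7 days old after growth on diluted MS medium at 28 °C with 16 h of light and 8 h of dark. The control group was 1 sample with no treatment, and the cadmium group was 1 sample given cadmium, a heavy metal toxic to plants, at 200 µM. The labels give the exposure as 6 h in the protocol and as 4 h in the treated sample's own description. No mutation or transgene is named for either sample. With 1 array per group there was no replicate, so no difference below has a test, an error or a p-value. The labels do not say how many seedlings were combined in a sample, and the labelled treatment cannot be told apart from any other difference between the samples or their hybridizations.

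Jasmonates are lipid hormones that plants make on wounding, insect attack and some abiotic stresses. LOX, AOS and AOC enzymes build the precursor OPDA in the plastid, and OPR3 reduces it in the peroxisome, where its side chain is then shortened. The isoleucine conjugate of jasmonic acid joins the receptor COI1 to JAZ proteins, which are then degraded, and this frees MYC transcription factors that the JAZ proteins hold back. The freed factors switch on response genes such as VSP2, and also many genes for synthesis and for JAZ proteins themselves, so that JAZ transcripts are in common use as a readout of the pathway.

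The values are log2 levels from RMA, a method that summarises the probes of a probe set into 1 value per array. Differences are given as cadmium minus control in log2 units, so that 1 stands for 2-fold. Differences of the plant probe sets had a median of 0.02 and an SD of 0.28. The table gives no detection calls. As a guide to unspecific signal, the 27 control probe sets for Bacillus and trpn sequences ranged from 3.52 to 4.95 in the control sample and from 3.56 to 4.98 in the cadmium sample.

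Within the jasmonate set, the probe sets for LOX2 and VSP1/VSP2 were at least 2-fold higher on the cadmium array, and the probe set for JAZ7 was at least 2-fold lower. The remaining 7 differed by less than 2-fold. Thus 2 of 10 were called higher at this limit, against 0.422% of the plant probe sets. Called lower was 1 of 10, against 0.624%. Because the members were chosen with earlier results known, the contrast with these shares is a description and not independent support. The VSP1/VSP2 call rested on a low control value and on the exact limit, and it was lost when the median difference of the plant probe sets was subtracted. At a limit of 1.5-fold, JAZ1 joined the higher probe sets, giving 3 of 10 against 1.46% of the plant probe sets. JAZ7 was the only member at least 1.5-fold lower, against 2.49%. The median difference of the 10 was 0.23, beside 0.02 for all plant probe sets. Above 0 were 9 of the 10 differences, beside 54.7% of the plant probe sets. These include OPR3 at 0.03 and JAZ5 at 0.06, and JAZ8, which lay inside the Bacillus and trpn range on both arrays. The signs of such differences carry no weight, so the count does not show a rise across the set.

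**Figure D1:**
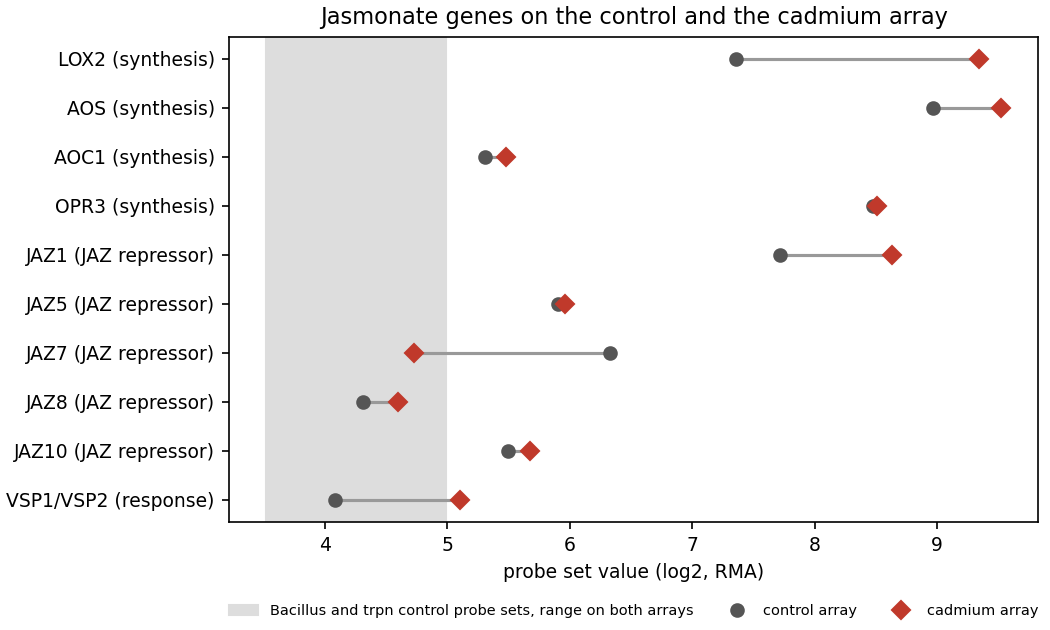
Log2 values of the 10 jasmonate probe sets on the control array (circles) and the cadmium array (diamonds), 1 array each, with the range of the 27 Bacillus and trpn control probe sets shaded. LOX2, AOS, JAZ1 and VSP1/VSP2 lie visibly further right on the cadmium array and JAZ7 further left, and JAZ8 lies within the shaded range on both arrays.

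Among the synthesis enzymes, the difference was carried by LOX2, with a smaller one for AOS. LOX2 (AT3G45140, probe set 252618_at) encodes a plastid lipoxygenase that adds oxygen to linolenic acid at the start of the pathway and supplies much of the jasmonate made in wounded leaves. Its value was 7.36 without and 9.34 with cadmium. The difference of 1.99, or 3.96-fold, was matched or exceeded in the upward direction by only 8 plant probe sets, LOX2 included. Both values lay clear of the Bacillus and trpn range. The difference stayed between 1.80 and 2.20 under each of the 5 other ways of scaling or correcting the arrays.

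AOS (AT5G42650, 249208_at), the allene oxide synthase that acts directly after the lipoxygenase, had values of 8.96 without and 9.53 with cadmium. This difference of 0.56, or 1.48-fold, was just short of the 1.5-fold limit, and 365 plant probe sets differed upward by as much or more.

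The probe sets for the next enzymes of the route, AOC1 and OPR3, showed little difference. AOC1 (AT3G25760, 257644_at), an allene oxide cyclase, had values of 5.31 without and 5.48 with cadmium, 0.17 apart. OPR3 (AT2G06050, 265530_at), the OPDA reductase, had values of 8.48 and 8.51, 0.03 apart. Both differences were smaller than the SD of the plant probe sets. AOC1 and OPR3 changed places when a lowess curve was subtracted, at 0.09 and 0.11, so their order is not fixed. The AOC1 values lay only a little above the Bacillus and trpn range, which reached 4.95 and 4.98. No probe set of another cyclase gene was described here, so these values do not cover the cyclase step as a whole. The median difference over the 4 enzymes was 0.37.

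**Figure D2:**
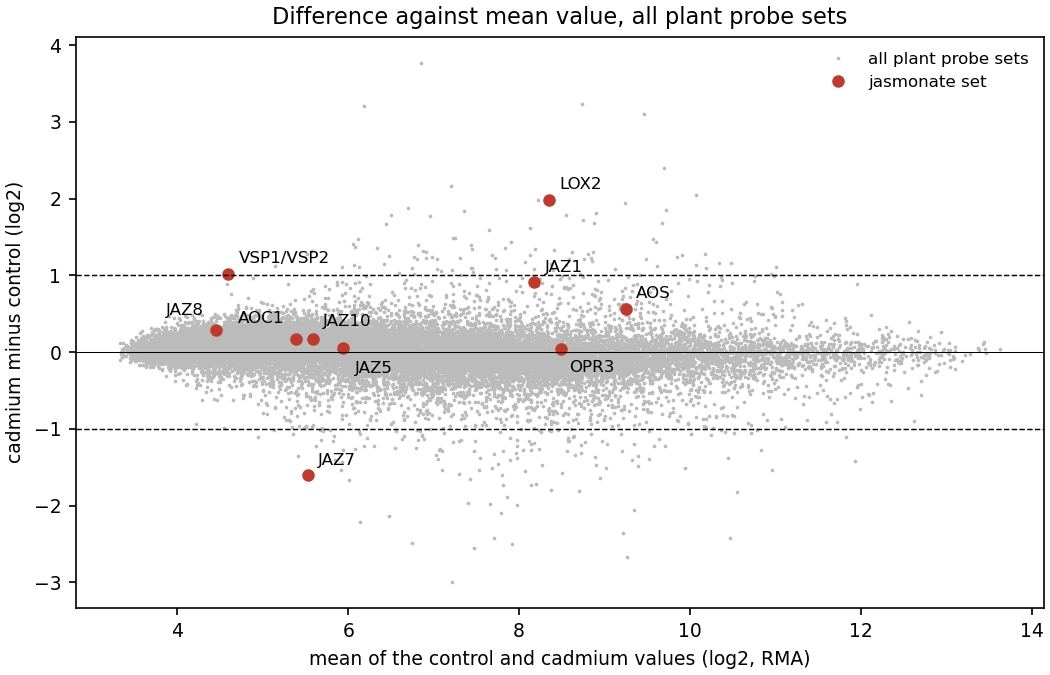
Difference (cadmium minus control, log2) against the mean of both values for all 22746 plant probe sets (grey) and the 10 jasmonate probe sets (red), with dashed lines at 2-fold. LOX2 at 1.99 and JAZ7 at -1.60 lie outside the bulk of the probe sets, and AOC1, OPR3, JAZ5, JAZ8 and JAZ10 lie within it.

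The 5 JAZ repressors did not differ in 1 direction. JAZ1 was higher on the cadmium array, JAZ7 was lower, and JAZ5, JAZ8 and JAZ10 differed by 0.29 or less. JAZ1 (AT1G19180, 256017_at), a repressor that is degraded through COI1 in the presence of the hormone, had a value of 7.72 without and 8.63 with cadmium. The difference was 0.91, or 1.88-fold, and 123 plant probe sets differed upward by as much or more. It was under the 2-fold limit as deposited and over it, at 1.13, only with scaling to the hybridization controls.

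JAZ7 (AT2G34600, 266901_at), a JAZ protein that has been linked to leaf senescence in the dark, had a value of 6.33 without and 4.73 with cadmium. The difference was -1.60, and 27 plant probe sets, JAZ7 included, were as low or lower. Its control value lay above the Bacillus and trpn range and its cadmium value lay inside it, so the lower end of the difference is not well measured. With its cadmium value raised to the highest of those controls on the cadmium array, JAZ7 was 2.53-fold lower. With 32 added to each linear value the difference was -0.94, which is under the 2-fold limit.

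JAZ8 (AT1G30135, 256159_at) encodes a repressor whose degron departs from the usual form and which resists degradation. Its values were 4.31 without and 4.60 with cadmium, both inside the Bacillus and trpn range, so its difference of 0.29 carries no order. JAZ10 (AT5G13220, 250292_at), known for splice forms that escape degradation, had values of 5.50 and 5.67, 0.18 apart. JAZ5 (AT1G17380, 261033_at), a further repressor of the family, had values of 5.90 and 5.96, 0.06 apart. The JAZ10 and JAZ5 differences were smaller than the SD of the plant probe sets. Over the 5 JAZ probe sets the differences ran from -1.60 to 0.91 with a median of 0.18. That median was 0.39 with scaling to the hybridization controls, beside 0.24 for all plant probe sets, and 0.06 with values raised to the highest Bacillus or trpn control, beside 0.04. It also hides a pair of larger differences of opposite sign. Whether JAZ7 differed from the other JAZ genes in its response could not be tested with 1 array per group.

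The response genes VSP1 and VSP2 encode vegetative storage proteins, acid phosphatases of which VSP2 is a standard marker of the MYC branch. Their loci are next to each other in the reference annotation. The probe set 245928_s_at, whose suffix marks probes shared by several transcripts, cannot separate them. Its value was 4.08 without and 5.11 with cadmium, a difference of 1.02 or 2.03-fold. The control value lay inside the Bacillus and trpn range and the cadmium value only just above it. With its control value raised to the highest of those controls on the control array, the probe set was 1.12-fold higher. With 32 added to each linear value the fold was 1.36. The size of the difference is therefore not fixed by these values.

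**Figure D3:**
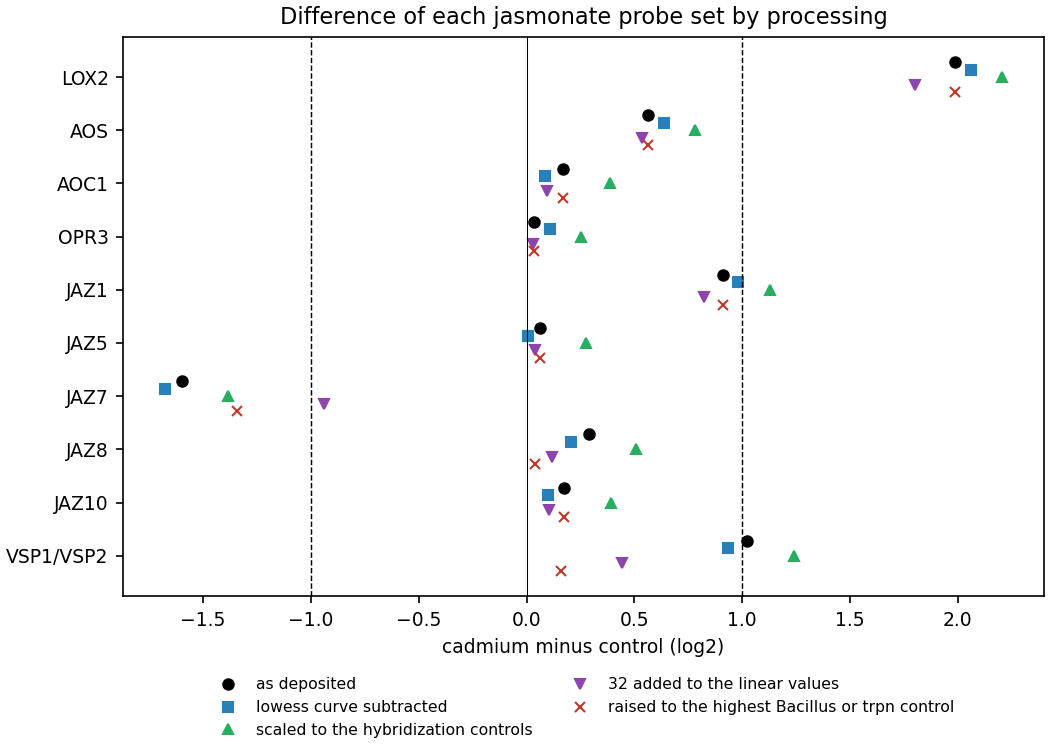
Difference of each jasmonate probe set (cadmium minus control, log2) as deposited and under 4 other settings, with dashed lines at 2-fold. LOX2 stays near 2 in all of them, while VSP1/VSP2 ranges from 0.16 to 1.24 and JAZ7 from -1.68 to -0.94.

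Scaling between the arrays mattered for the smaller differences. The hybridization controls bioB, bioC, bioD and cre, which are added to the labelled RNA, were on average 0.22 lower on the cadmium array. The mean difference was -0.27 for bioB and -0.07 for cre, so the shift was not the same for all of them. Setting this mean to 0 adds 0.22 to every plant difference and moves the median of the plant probe sets to 0.24. The median of the jasmonate set then became 0.45, and JAZ1 became the third member over the 2-fold limit, while the plant probe sets over it went from 96 (0.422%) to 181 (0.796%). The differences of OPR3 and JAZ5 came as close to 0 as 0.01 under other settings, so neither has a direction here.

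Other genes of the pathway were described from 5 lists with 67 genes, of which only 14 had a probe set named in the annotation used here. The lists, too, were chosen with earlier results of these data known. As deposited, 0 of the 14 were at least 2-fold higher, against 0.422% of the plant probe sets, and 0 were at least 2-fold lower, against 0.624%. At least 1.5-fold higher were 2 of 14, against 1.46%. Their median difference was 0.09, beside 0.02 for all plant probe sets, and 9 of 14 were above 0, beside 54.7%. Of the 14, 4 lay inside the Bacillus and trpn range on both arrays, so the signs of their differences carry no order. Of 8 further JAZ genes, 0 had a named probe set, so the family beyond the 5 members above was not analysed here.

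The list of jasmonate turnover had the highest median difference of the lists. Of 11 genes 5 had a probe set, and their median difference was 0.30. At least 1.5-fold higher was 1 of the 5, against 1.46% of the plant probe sets, and 0 were at least 2-fold higher, against 0.422%. The median includes 2 probe sets inside the Bacillus and trpn range on both arrays, whose differences carry no order. The other 3 were higher on the cadmium array, by 0.30 to 0.61, beside 54.7% of the plant probe sets above 0. The largest difference in this list was that of AT2G38240 (267147_at), known as JOX4, an oxidase that inactivates jasmonic acid, at 6.24 and 6.85, or 1.53-fold. The smallest was that of JMT (261150_at), which forms methyl jasmonate, at 4.15 and 4.22, inside the range of the controls.

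Of the response list, 4 of 14 genes had a probe set. GRX480 (261443_at), a glutaredoxin that interacts with TGA transcription factors and dampens the defensin branch of the response, had a value of 6.75 without and 7.65 with cadmium. Its difference of 0.89, or 1.86-fold, was the largest of the 14 genes. The defensin gene PDF1.2A (249052_at), a marker of the ethylene and jasmonate branch, had values of 4.38 and 4.32, inside the range of the controls on both arrays. The VSP genes of this list had no probe set named for them alone and are described above.

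The remaining pathway lists with a named probe set held 0 genes at least 1.5-fold higher, against 1.46% of the plant probe sets. They held 0 at least 1.5-fold lower, against 2.49%. Among the regulators, 3 of 15 genes had a probe set. MYC3 (248864_at), a transcription factor bound by JAZ proteins, had values of 7.00 without and 6.66 with cadmium, a difference of -0.34. That is further from 0 than the SD of the plant probe sets, 0.28. ORA47 (262211_at), an activator of jasmonate synthesis genes, had values of 6.79 and 6.89, a difference of 0.10. Of the 19 other synthesis genes, 2 had a probe set, and both act downstream of OPR3 in shortening the side chain. OPCL1 (259518_at), a CoA ligase, differed by -0.09, and AIM1 (253759_at), an enzyme of beta-oxidation, by -0.01. With scaling to the hybridization controls both of these became positive, at 0.13 and 0.21.

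**Figure D4:**
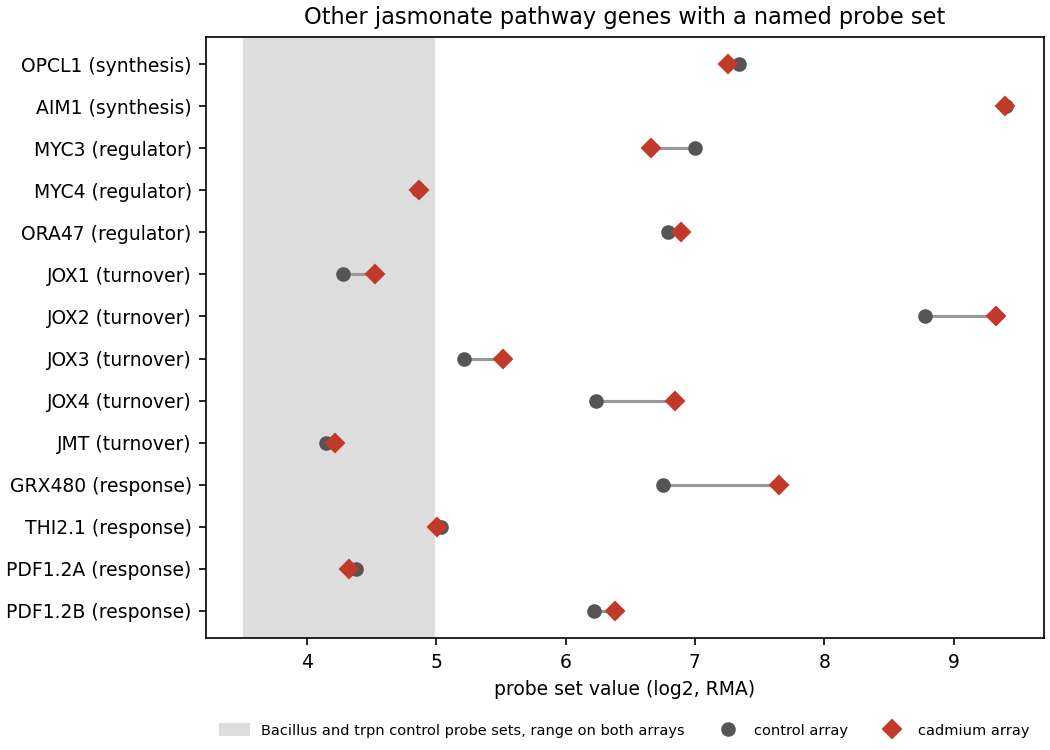
Log2 values of the 14 other jasmonate pathway genes with a named probe set on the control array (circles) and the cadmium array (diamonds), 1 array each, with the range of the Bacillus and trpn control probe sets shaded. GRX480 shows the widest gap, at 6.75 and 7.65, and MYC3 lies further left on the cadmium array.

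Markers of tissue and of handling were set beside these values. In bulk RNA, fewer cells of a type and less RNA per cell cannot be told apart. The shoot marker RCA (245061_at), rubisco activase, had values of 12.83 without and 12.77 with cadmium, the only one of 5 shoot markers with a named probe set. It became higher on the cadmium array, by 0.16, with scaling to the hybridization controls. Of 6 root markers 2 had one. PYK10 (259009_at), a root beta-glucosidase, had values of 12.22 and 12.49, and EXPA7 (259525_at), an expansin of root hair cells, at 6.74 and 6.08, so the root markers differed in opposite directions, by 0.28 and -0.67. EXPA7 was 1.59-fold lower on the cadmium array, and 2.49% of the plant probe sets were at least 1.5-fold lower. The shoot marker and both root markers had values above the Bacillus and trpn range on both arrays. In that respect only, no measured marker went against the whole seedling label. So few markers cannot show the share of shoot and root in either sample. Of 5 genes known to respond to touch, 2 had a probe set. CML38 (259879_at), a calmodulin-like protein, had values of 6.07 and 6.64, a difference of 0.58, and CML39 (259866_at) had values of 4.38 and 4.53, inside the range of the controls on both arrays, which carry no order. The part of tissue composition, handling or time of harvest in the jasmonate differences was not tested.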

How the data were processed

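Total RNA of 1 control and 1 cadmium sample was labelled with biotin and hybridized to ATH1 arrays, 1 per sample. The deposited table holds log2 values, made by the authors with RMA and the R package affy per the submitters' processing notes. For versions, options and the set of arrays normalized together, the sources used here give nothing. Such normalization can remove a shift shared by most transcripts. Of 22810 probe sets, 64 controls were set apart.

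The members and lists were chosen with earlier results of these data known. Gene names of the 10 members are those given with the selection. The platform annotation table names 1 gene for 13513 plant probe sets, several for 503 and lists 8730 not at all, the 10 members among these. As a check, the stated locus of each of the 10 was compared with the genes of the 6 nearest named probe set numbers. It lay within 5 protein-coding genes of 1 of them in every case (RefSeq, TAIR10.1). This places the locus in the right region only. It cannot tell a gene from a neighbouring gene of the same family, so which of such genes a probe set measures was not tested. Other genes were matched by locus. All list genes at least 2-fold different, or otherwise the highest and lowest of each list, are named. No sequences are shown.

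Differences were counted at 2-fold, with no filter. Alternatives were the subtraction of the median difference or of a lowess curve (fraction 0.3), scaling to the hybridization controls, 32 added to linear values, limits of 1.5-fold and 3-fold, the upper part by mean level, and omission of _s_at and _x_at probe sets. Raising values to the highest Bacillus or trpn control was added after seeing the data. The counting code was run on simulated data with changes well beyond the limit, which tells nothing of calls near it. The number of arrays limits the precision. Python 3.11.15, numpy 2.4.6, pandas 2.3.3, statsmodels 0.14.6 and matplotlib 3.10.9 were used.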

Additional observations from a re-analysis of the deposited data

How the results depend on the processing

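Of the 10 jasmonate probe sets, 2 were at least 2-fold higher as deposited (0.422% of the plant probe sets), 3 with scaling to the hybridization controls (0.796%) and 3 at the 1.5-fold limit (1.46%). The count was 1, LOX2 alone, with the median difference or a lowess curve subtracted, with 32 added, with values raised to the highest Bacillus or trpn control, at the 3-fold limit, in the upper part by mean level and without _s_at and _x_at probe sets, settings in which 0.101% to 0.739% of the plant probe sets were called higher. VSP1/VSP2 differed by 0.94 after the lowess subtraction, 0.44 with 32 added and 0.16 with raised values. The count of at least 2-fold lower, 1 as deposited, was 0 with 32 added and in the upper part by mean level, which leaves JAZ7 out (0.400% and 1.06% of the plant probe sets), and 1 otherwise (0.123% to 2.49%). The upper part kept 4 members, with a median difference of 0.74 against 0.23 over the 10, and 1 JAZ gene, JAZ1, at 0.91 against a JAZ median of 0.18. These shifts follow from the members removed. Elsewhere the median ran from 0.11 to 0.45 for the set, from 0.32 to 0.58 for the enzymes and from 0.06 to 0.39 for the JAZ genes, shifts below the SD of the plant differences, 0.28, but not small beside the medians themselves. Of the 14 other pathway genes, 1 (GRX480, at 1.11) was at least 2-fold higher with scaling to the hybridization controls (0.796% of the plant probe sets) and 0 under each other setting run on them. Differences near 0 have no fixed sign, since the median and hybridization control scalings add 1 amount to every probe set, and a probe set below the highest control on both arrays takes the gap between those controls, 0.04, when values are raised. The pathway lists were counted at 1.5-fold on the values as deposited only. They were not counted at 3-fold or on parts of the probe sets. With 1 array per group no array could be left out, and small differences or weak signals cannot be judged.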
